A study of Mus musculus with 6 samples.

Results

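The levels of 9 genes of growth cones and neurite outgrowth were followed in Neuro-2a, a neurite-forming line derived from a mouse neuroblastoma: Gap43, Basp1, Marcks, Marcksl1, Stmn1, Stmn2, Stmn3, Stmn4 and Nrn1. They were chosen by symbol, 9 of the 21876 symbols in the table, and each had 1 row. The 6 libraries formed 3 groups of 2: cells overexpressing the long noncoding RNA lncPim1, cells with RNA interference against lncPim1 (called knockdown here), and control cells labelled wild type. No empty vector or scrambled RNA is named for the control cells, and no clone, passage or time is given. Separate cultures are not stated for the 2 libraries of each group, and p-values therefore cover the spread between the libraries only, possibly a technical one. The series title speaks of neurite regeneration after an injury by ACR, while the labels of these samples name no such treatment.

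The growth cone is the motile tip of a growing neurite, where actin filaments and microtubules are remodelled under a membrane rich in the lipid PIP2. Gap43, Basp1, Marcks and Marcksl1 encode acidic proteins that sit on the inner face of that membrane, bind PIP2, actin or calmodulin, and are released or altered by protein kinase C. Stathmins bind tubulin dimers and favour microtubule disassembly until phosphorylation turns them off. Neuritin, encoded by Nrn1, is a small GPI-anchored protein on the outer face of the membrane, induced by neural activity and known to promote neurite growth and branching.

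The known membrane attachment signals of most of these proteins lie at their start. The first 30 codons are shown for the genes below, 5′ to 3′, from the GENCODE M21 transcripts (build GRCm38). This stretch was picked with the results known, and its relation to the level changes was not tested. Stmn1, which lacks such a signal, fell under knockdown, as did Basp1, Marcks and Marcksl1, which carry one. So did Nrn1, in which no codon is marked below. Gap43, Stmn2, Stmn3 and Stmn4, which also carry a signal at their start, were not called. Capitals mark cysteine codons, the known palmitoylation sites of these proteins, or a glycine codon at position 2 with a serine or threonine codon at position 6, the usual start of a myristoylated protein. Codons are counted from 1 at the start codon. On GRCm38 the genes span chr4:134468320-134473843 (Stmn1, plus strand), chr3:8509360-8561606 (Stmn2, plus), chr2:181306459-181314500 (Stmn3, minus) and chr14:66344296-66361680 (Stmn4, plus). Gap43 spans chr16:42248442-42340651 (minus), Basp1 chr15:25363277-25413764 (minus), Marcks chr10:37133375-37138920 (minus), Marcksl1 chr4:129513581-129515985 (plus) and Nrn1 chr13:36725361-36735131 (minus).
Stmn1: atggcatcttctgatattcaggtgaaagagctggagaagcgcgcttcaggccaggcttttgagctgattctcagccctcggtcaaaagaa
Stmn2: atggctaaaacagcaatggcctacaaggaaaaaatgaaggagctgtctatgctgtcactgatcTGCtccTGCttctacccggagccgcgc
Stmn3: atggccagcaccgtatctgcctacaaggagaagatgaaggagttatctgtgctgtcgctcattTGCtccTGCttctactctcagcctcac
Stmn4: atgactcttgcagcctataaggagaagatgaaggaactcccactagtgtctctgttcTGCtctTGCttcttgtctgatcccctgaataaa
Gap43: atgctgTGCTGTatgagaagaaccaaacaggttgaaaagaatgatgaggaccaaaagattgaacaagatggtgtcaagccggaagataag
Basp1: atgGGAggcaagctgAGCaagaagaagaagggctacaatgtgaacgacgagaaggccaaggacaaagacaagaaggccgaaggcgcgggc
Marcks: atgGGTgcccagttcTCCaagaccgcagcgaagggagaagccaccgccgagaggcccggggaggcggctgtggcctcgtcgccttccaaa
Marcksl1: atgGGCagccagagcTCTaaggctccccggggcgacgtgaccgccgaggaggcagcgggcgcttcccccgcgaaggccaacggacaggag
Nrn1: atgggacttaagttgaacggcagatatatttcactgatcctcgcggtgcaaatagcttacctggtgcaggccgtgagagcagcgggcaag

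Within these windows Stmn1 had no cysteine codon, while Stmn2 and Stmn3 had them at 22 and 24, Stmn4 at 20 and 22, and Gap43 at 3 and 4. Basp1, Marcks and Marcksl1 carried the glycine and serine pair. Nrn1 is shown in lower case throughout: it had glycine at codon 2 but no serine or threonine at codon 6, and its product enters the secretory pathway by a signal peptide. Stmn1 is the short stathmin, with 149 codons against 179 in Stmn2, 180 in Stmn3 and 189 in Stmn4. In global alignments of the coding sequences, identical bases made up 70.5% (Stmn2), 66.2% (Stmn3) and 69.1% (Stmn4) of Stmn1. Marcks and Marcksl1 were identical at 61.3% of the bases of Marcksl1, the shorter of the pair.

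Values are FPKM, fragments scaled by transcript length and library total, which can be compared between genes. Tests used log2(FPKM + 1) over the 10721 genes whose mean reached 1 FPKM, and a gene was called at an adjusted p under 0.05 (limma, Benjamini-Hochberg over all of them). All 9 genes passed that filter. Summed FPKM was 294510 and 303139 under overexpression, 277508 and 272528 under knockdown, and 298032 and 305463 in control cells. Spearman correlations between the libraries of a group were 0.995 to 0.997. Of 11 neuronal and sympathoadrenal markers 10 had a mean of at least 1 FPKM, Dbh being the exception. The same held for 0 of 4 fibroblast markers, 0 of 4 macrophage markers and 1 of 5 glial markers, Mbp. No row carried the name lncPim1, which was not analysed here, so the labels were not checked on the targeted RNA.

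In control cells the 9 genes spanned 18.6 ± 0.223 FPKM for Stmn4 to 546 ± 8.38 FPKM for Stmn1 (SD, n = 2), which stood above 99.5% of tested genes. Basp1 came next at 247 ± 2.03 FPKM, then Marcksl1 at 192 ± 2.64, Stmn3 at 189 ± 5.31, Stmn2 at 165 ± 8.91, Gap43 at 151 ± 1.47, Marcks at 61.8 ± 1.68 and Nrn1 at 29.1 ± 2.24. Between neighbours in this order the library values overlapped for 1 pair, Marcksl1 and Stmn3. The order differed under knockdown, where Marcksl1 lay below Stmn2 and Nrn1 below Stmn4, with no overlap between neighbours. Together the 9 genes made up 0.506% and 0.516% of summed FPKM under overexpression, 0.477% and 0.475% under knockdown, and 0.534% and 0.526% in control cells.

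**Figure D1:**
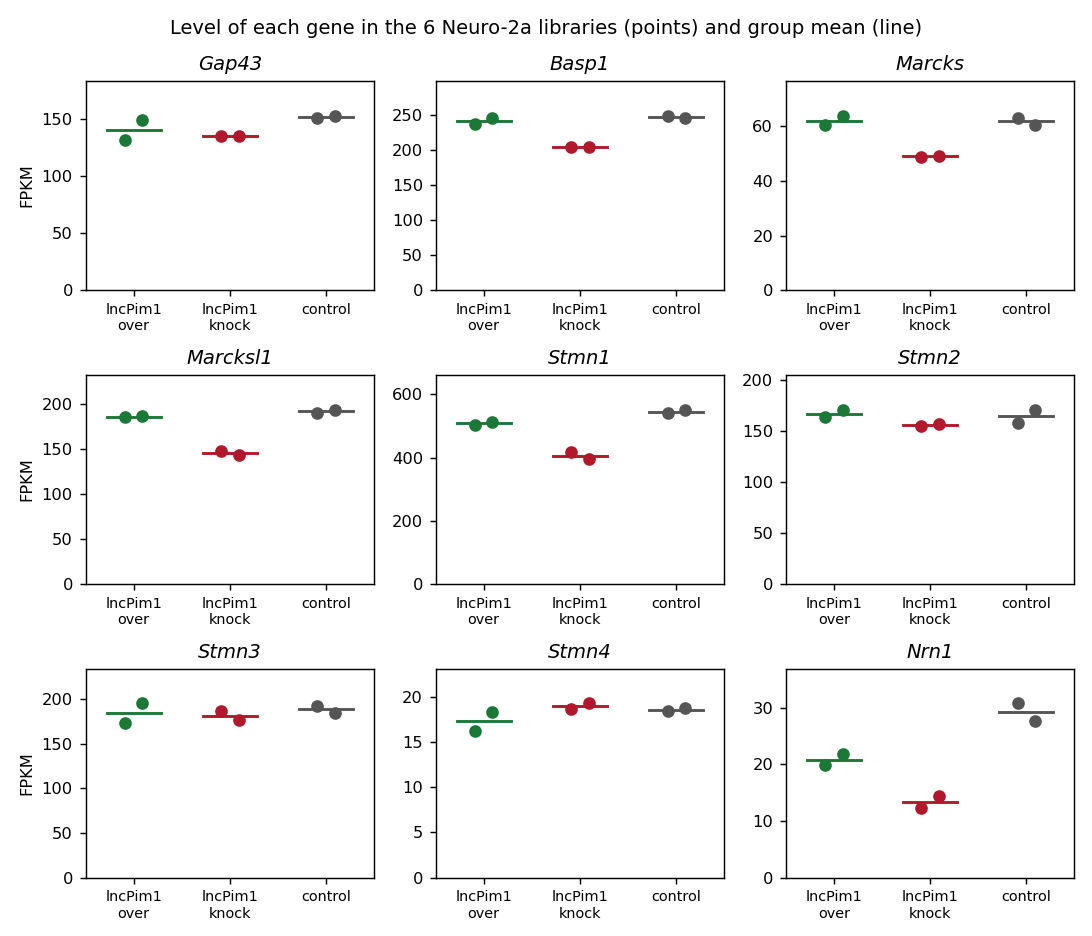
FPKM of each gene in every library (points) with the mean of its group (line); each vertical axis starts at 0. Nrn1 is lowest under knockdown, at 12.3 and 14.4 FPKM, and intermediate under overexpression, while the points of Stmn2, Stmn3 and Stmn4 stay close together in all groups.

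Under knockdown, Nrn1, Stmn1, Marcksl1, Marcks and Basp1 fell, and Gap43, Stmn2, Stmn3 and Stmn4 were not called. That is 5 of 9 lower and 0 higher, in a comparison in which 31.3% of all tested genes were called lower and 14.8% higher. The median log2 fold change of the 9 genes was -0.27, and that of all tested genes -0.07. All 9 genes also passed a filter at 5 FPKM. Among the genes passing it, 39.5% were called lower and 12.6% higher under knockdown, with a median of -0.11. Gap43 was called lower as well in that fit. Under overexpression Nrn1 alone fell, 1 of 9, where 0.849% of tested genes were called lower and 0.690% higher, and the medians were -0.05 and -0.0031. Both comparisons share the control libraries. Groups of 2 libraries often lie wholly apart. Among all tested genes, both knockdown libraries lay below both controls in 47.9% and above them in 26.5%. Both overexpression libraries lay below both controls in 26.2% and above them in 23.3%. Of the 9 genes, 7 lay wholly below the controls under knockdown and 5 under overexpression, and 0 lay wholly above.

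How libraries are scaled matters for the knockdown. Scaling each library by its median log ratio gave 2234 genes higher and 2310 lower in place of 1590 and 3358, and quantile normalization gave 2003 and 2292. The same 5 members were called lower under both. Their log2 fold changes after quantile normalization were closer to 0, at -0.14 for Basp1, -0.17 for Marcks, -0.18 for Marcksl1, -0.25 for Stmn1 and -0.98 for Nrn1. In bulk RNA, fewer cells of a type and less RNA per cell cannot be told apart.

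**Figure D2:**
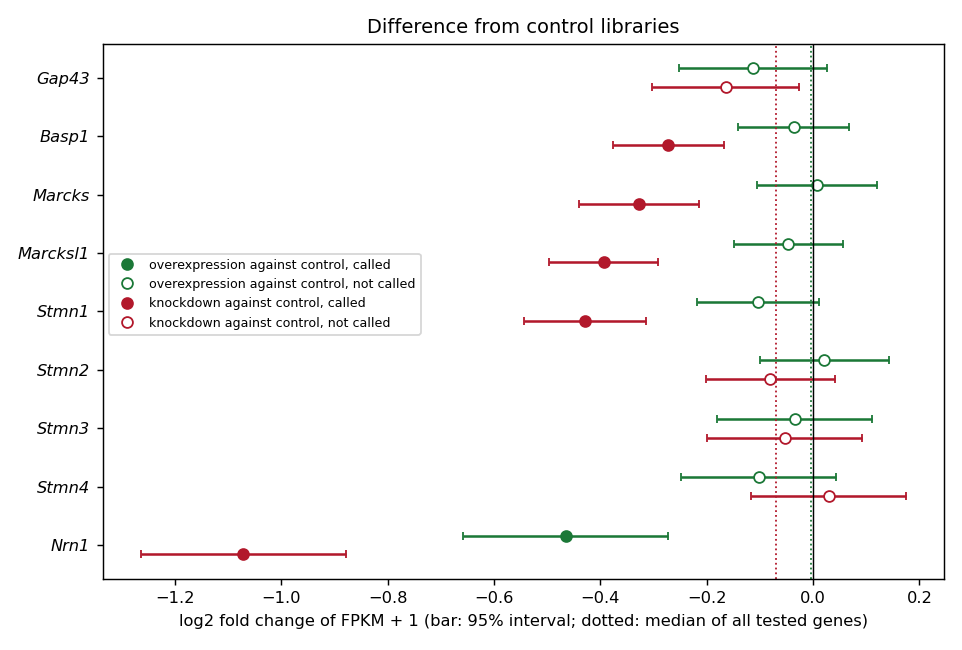
Log2 fold change (of FPKM + 1) of each gene against control cells, with 95% intervals; filled points were called, and dotted lines give the median of all tested genes. Nrn1 lies at -0.46 under overexpression and -1.07 under knockdown, and Stmn1, Marcksl1, Marcks and Basp1 lie left of the knockdown median.

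Among the membrane proteins, Gap43 encodes a palmitoylated protein long used as a marker of growing and regenerating axons. Gap43 stood at 132 and 149 FPKM under overexpression, 135 and 135 under knockdown, and 150.4 and 152 in control cells. All treated libraries lay below the controls, yet the difference was small. Its log2 fold change was -0.11 (95% interval -0.25 to 0.03; limma, adjusted p = 0.389) under overexpression and -0.16 (-0.30 to -0.03; limma, adjusted p = 0.0537) under knockdown. The knockdown value passed the threshold with a filter at 5 FPKM (limma, adjusted p = 0.0473) and in the fit of only the 4 libraries compared (0.0192). It also passed without overexpression 1 (0.0190) and without overexpression 2 (0.0191), and after quantile normalization it turned to 0.05 (0.424).

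Basp1 (also CAP-23 or NAP-22), a myristoylated relative of Gap43 in function, stood at 237 and 246 FPKM under overexpression, 205 and 205 under knockdown, and 249 and 246 in control cells. Both knockdown libraries lay below every other library, and the overexpression values overlapped the controls. Basp1 fell by 17.3% of the control mean under knockdown, a log2 fold change of -0.27 ± 0.05 (SE; limma, adjusted p = 0.00188). Under overexpression its log2 fold change was -0.04 (95% interval -0.14 to 0.07), which was not called. The ratio of Basp1 to Gap43 was 1.80 and 1.65 under overexpression, 1.52 and 1.52 under knockdown, and 1.66 and 1.61 in control cells. Its knockdown values lay below those of the other libraries.

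Marcks encodes a major protein kinase C substrate that crosslinks actin and holds PIP2 at the membrane, and Marcksl1 encodes its smaller relative. Marcks stood at 60.4 and 63.8 FPKM under overexpression, 48.8 and 49.2 under knockdown, and 63.0 and 60.6 in control cells. Marcksl1 stood at 186 and 187 FPKM under overexpression, 148 and 144 under knockdown, and 190.4 and 194 in control cells. For both genes the knockdown libraries lay apart from all others. Marcks fell by 0.33 ± 0.05 (SE) on the log2 scale (limma, adjusted p = 0.00114) and Marcksl1 by 0.39 ± 0.04 (limma, adjusted p = 3.32e-04) under knockdown. Under overexpression their log2 fold changes were 0.0073 (95% interval -0.11 to 0.12) and -0.05 (-0.15 to 0.06).

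Marcksl1 exceeded Marcks by a similar factor everywhere, with ratios of 3.07 and 2.92 under overexpression, 3.03 and 2.93 under knockdown, and 3.02 and 3.20 in control cells. RefSeq names 5 pseudogenes or related sequences after Marcksl1 and 2 after Stmn1, none of which has a row in the table. The sources used here do not say how reads shared with such copies were assigned, so the levels of these genes are uncertain to that extent.

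Stmn1, the ubiquitous cytosolic stathmin that is abundant in proliferating and tumour cells, was the most abundant of the 9 genes. Stmn1 stood at 503 and 513 FPKM under overexpression, 416 and 394 under knockdown, and 539.8 and 552 in control cells. The 3 groups did not overlap. Pairs of groups often lay wholly apart among all tested genes, and the share with all 3 groups apart was not counted. Under knockdown it fell by 25.7% of the control mean, a log2 fold change of -0.43 ± 0.05 (SE; limma, adjusted p = 3.75e-04). Under overexpression its log2 fold change was -0.10 (95% interval -0.22 to 0.01; limma, adjusted p = 0.346), which was not called.

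The palmitoylated stathmins encoded by Stmn2 (SCG10), Stmn3 (SCLIP) and Stmn4 (RB3) are neuronal, found on Golgi-derived vesicles and in growth cones. Stmn2 stood at 163 and 171 FPKM under overexpression, 154 and 156 under knockdown, and 158 and 171 in control cells. Stmn3 stood at 174 and 195 FPKM under overexpression, 187 and 177 under knockdown, and 192 and 185 in control cells. For Stmn3 the libraries of all groups overlapped, and for Stmn2 the knockdown libraries lay just below the lower control. Their log2 fold changes under knockdown were -0.08 (95% interval -0.20 to 0.04; limma, adjusted p = 0.247) and -0.05 (-0.20 to 0.09; 0.523). Under overexpression these were 0.02 (-0.10 to 0.14) and -0.03 (-0.18 to 0.11).

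Stmn4 was the least abundant stathmin, at 16.2 and 18.3 FPKM under overexpression, 18.7 and 19.3 under knockdown, and 18.4 and 18.7 in control cells. Its log2 fold change was -0.10 (95% interval -0.25 to 0.04) under overexpression and 0.03 (-0.12 to 0.18) under knockdown, and neither was called. The direction of the small knockdown differences of Stmn2 and Stmn3 depended on scaling. After median log ratio scaling Stmn2 was at 0.0022 and Stmn3 at 0.03, and after quantile normalization at 0.12 and 0.15, where Stmn3 was called higher (limma, adjusted p = 0.0393).

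The makeup of the stathmin pool differed accordingly. Summed over the 4 genes it was 856 and 897 FPKM under overexpression, 776 and 747 under knockdown, and 909 and 926 in control cells. Stmn1 made up 58.8% and 57.2% of it under overexpression, 53.6% and 52.8% under knockdown, and 59.4% and 59.6% in control cells. The remaining Stmn2, Stmn3 and Stmn4 summed to 353 and 384 FPKM under overexpression, 360.0 and 352 under knockdown, and 369 and 374 in control cells, where the groups lay close together. The ratio of Stmn1 to Stmn2 was 3.08 and 3.01 under overexpression, 2.69 and 2.52 under knockdown, and 3.41 and 3.23 in control cells, with no overlap between groups. The ratio of Stmn1 to Stmn3 was 2.90 and 2.63 under overexpression and 2.23 and 2.23 under knockdown. In control cells it was 2.81 and 2.98, so overexpression and control overlapped for that ratio. A ratio within a library does not change when the whole library is rescaled. With 2 libraries against 2, an exact two-sided permutation test of such a ratio cannot give a p below 0.333, so none is reported.

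**Figure D3:**
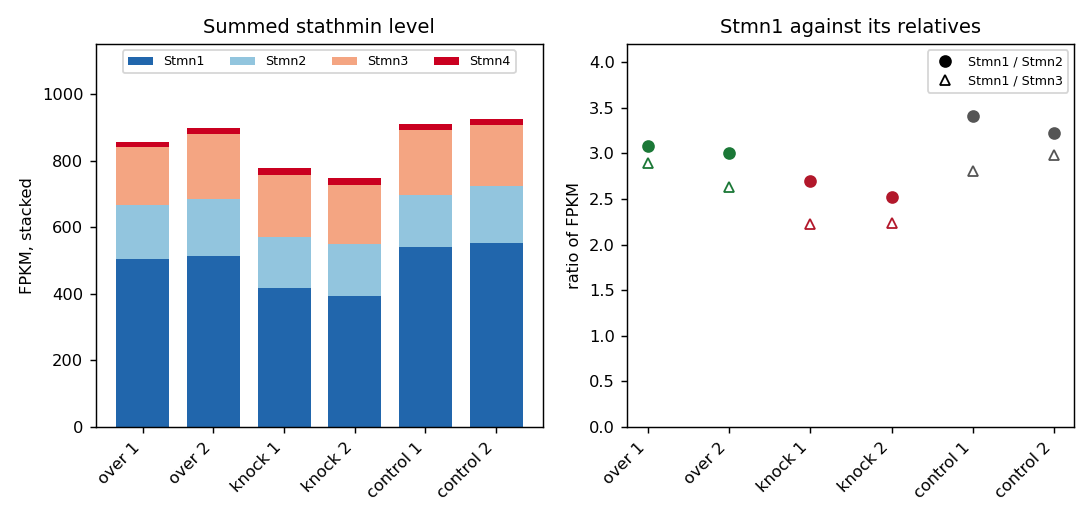
Left, FPKM of the 4 stathmins stacked by library; right, the ratio of Stmn1 to Stmn2 (filled circles) and to Stmn3 (open triangles) in each library. The Stmn1 segment is shortest in the knockdown libraries, at 416 and 394 FPKM, and both ratios are lowest there.

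Neuritin showed the largest difference of the 9 genes. Nrn1 stood at 19.8 and 21.9 FPKM under overexpression, 12.3 and 14.4 under knockdown, and 30.7 and 27.5 in control cells. The 3 groups did not overlap, and both treated groups lay below the controls. Over all tested genes, 47.9% lay wholly below the controls under knockdown and 26.2% under overexpression. The share with all 3 groups apart was not counted. Under knockdown Nrn1 fell by 54.2% of the control mean, a log2 fold change of -1.07 ± 0.08 (SE; limma, adjusted p = 1.15e-04). Its size of change ranked 73 among the tested genes. Under overexpression it fell by 28.5% of the control mean, a log2 fold change of -0.46 ± 0.08 (SE; limma, adjusted p = 0.0398).

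The overexpression call for Nrn1 was close to the threshold. It was lost without control 1 (limma, adjusted p = 0.260), control 2 (0.0954), overexpression 1 (0.232) or overexpression 2 (0.0765), each of which leaves 1 library in a group. It was also lost without a filter on low values (0.172), without the expression trend (0.0787), after quantile normalization (0.0645) and with the replicate number as a block (0.0682). Over all alternatives the log2 fold change stayed between -0.54 and -0.39. The knockdown call held in all 15 alternatives, at -1.17 to -0.97.

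Nrn1 lies on chromosome 13, from 36725361 to 36735131 on the minus strand of GRCm38. Exons of an antisense gene, Fars2, cover 501 of its 2249 exon bases, from 36725780 to 36726280. Whether counting used the strand is unknown here, and without the strand reads from that stretch cannot be assigned to one gene. Fars2, which encodes a mitochondrial tRNA synthetase, stood at 4.36 and 4.13 FPKM under overexpression, 3.32 and 3.32 under knockdown, and 3.62 and 4.47 in control cells, and was not called against control cells under overexpression or knockdown (limma, adjusted p = 0.781 and 0.0777). The relative of Nrn1, Nrn1l, stood at 0.265 and 0.470 FPKM under overexpression, 0.819 and 1.199 under knockdown, and 0.401 and 0.285 in control cells, and fell under the filter, so it was not tested.

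The 2 treatments were also set against each other. Nrn1, Marcksl1, Marcks, Stmn1 and Basp1 were higher under overexpression than under knockdown, 5 of 9, where 28.1% of tested genes were called higher and 12.4% lower. Nrn1 was higher by 0.61 ± 0.08 (SE) on the log2 scale (limma, adjusted p = 0.00115), and the others by 0.24 for Basp1 to 0.35 for Marcksl1. The Basp1 difference was not called after quantile normalization (0.08; limma, adjusted p = 0.164). Gap43, Stmn2 and Stmn3 were not called, at 0.05 (95% interval -0.09 to 0.19), 0.10 (-0.02 to 0.22) and 0.02 (-0.13 to 0.16). After quantile normalization Stmn3 turned to -0.16 and was called lower under overexpression (limma, adjusted p = 0.0344). Stmn4 was at -0.13 (-0.28 to 0.01), and was called lower under overexpression when the median log ratio scaled the libraries (-0.20; adjusted p = 0.0330 in limma), with quantile normalization (-0.23; 0.0276) and without overexpression 2 (-0.21; 0.0495). Over all tested genes the split of 3013 higher and 1332 lower moved to 1983 and 1892 after median log ratio scaling and to 1930 and 1707 after quantile normalization.

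The genes whose pattern lay closest to each called member were found from the distance between centred log2 values over the 6 libraries. For Nrn1 these were Chrna3, which encodes a nicotinic acetylcholine receptor subunit, Gas1, which encodes a GPI-anchored growth arrest protein, and Cplx2, a complexin gene of synaptic vesicle release, at distances of 0.184, 0.228 and 0.254. Chrna3 stood at 34.8 and 38.2 FPKM under overexpression, 22.8 and 22.8 under knockdown, and 48.8 and 45.2 in control cells. Its groups did not overlap either, but Chrna3 was picked for closeness to Nrn1 over these same 6 libraries. Kpna2 (0.047), Ect2 (0.048) and Hnrnpk (0.049) were closest to Stmn1, Laptm4a, Smarcd1 and Cct8 to Marcksl1, Sephs1, Ngdn and Psmd3 to Marcks, and Klc1, Ran and Sprtn to Basp1. No member was among the 3 closest genes of another member.

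Partners of these proteins were described with 10 lists. These lists were chosen with earlier results of these data known, so their shares are a description and not a test. Under knockdown, 13 of 19 tested partners of the membrane proteins were lower and 0 higher, with a median log2 fold change of -0.22. The 68.4% lower stood beside 31.3% of all tested genes. Prkca, the gene of protein kinase C alpha, stood at 2.67 and 2.53 FPKM under overexpression, 1.61 and 1.63 under knockdown, and 3.19 and 3.34 in control cells. Prkca fell by 0.70 ± 0.08 on the log2 scale under knockdown (limma, adjusted p = 2.87e-04). Ppp3r1, a calcineurin subunit gene, fell by 0.44 ± 0.05 under knockdown. The count became 9 lower and 1 higher after median log ratio scaling and 9 lower and 0 higher after quantile normalization. Among all tested genes 21.5% were lower and 20.8% higher after median log ratio scaling. After quantile normalization these shares were 21.4% and 18.7%. The same shares of all tested genes stand beside the scaled knockdown counts of the lists that follow. Under overexpression 1 member was lower, Pcp4, which encodes a small calmodulin-binding protein, by 0.37 ± 0.06 (limma, adjusted p = 0.030).

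Of 15 enzymes that add or remove palmitate, 10 were lower and 1 higher under knockdown. That is 66.7% lower and 6.67% higher, beside 31.3% and 14.8% of all tested genes. The higher one was Zdhhc17, a palmitoyltransferase gene, at 15.6 and 15.4 FPKM under overexpression, 20.4 and 20.1 under knockdown, and 14.7 and 15.0 in control cells. Among the lower ones Abhd17c, a depalmitoylase gene, fell by 0.40 ± 0.06 and Zdhhc15, another palmitoyltransferase gene, by 0.42 ± 0.07. The list median was -0.23. After median log ratio scaling 6 were lower and 1 higher, beside 21.5% and 20.8% of all tested genes. After quantile normalization 6 were lower and 2 higher, Zdhhc17 and Lypla2, beside 21.4% and 18.7%. Of 15 enzymes of PIP2 turnover 4 were higher and 3 lower, with a median of 0.05, and the split was 7 and 2 after median log ratio scaling and 5 and 3 after quantile normalization. In the fit reported 26.7% were higher and 20% lower, beside 14.8% and 31.3% of all tested genes. Pip5k1c, a PIP2-producing kinase gene, fell by 0.60 ± 0.07 and Plcb3, a phospholipase C gene, rose by 0.39 ± 0.06.

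For the stathmins, 9 of 19 tested kinases and phosphatases were lower under knockdown and 2 higher (median -0.13), with 6 and 2 after median log ratio scaling and 5 and 2 after quantile normalization. The 47.4% lower and 10.5% higher stood beside 31.3% and 14.8% of all tested genes. After median log ratio scaling 21.5% of all tested genes were lower and 20.8% higher, and after quantile normalization 21.4% and 18.7%. Ppp2ca and Ppp1ca, catalytic subunits of the major serine/threonine phosphatases, fell by 0.35 ± 0.04 and 0.39 ± 0.05. Mapk8, the gene of the stathmin kinase JNK1, fell by 0.39 ± 0.07. Among 12 other partners 3 were lower and 2 higher (median -0.10), with equal counts after either scaling. The 25% lower and 16.7% higher stood near the 31.3% and 14.8% of all tested genes. Tbcb, a tubulin-folding cofactor gene, fell by 0.57 ± 0.05 and Stat3, whose product binds stathmin, rose by 0.44 ± 0.06.

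RNA-binding proteins that govern Gap43 or stathmin transcripts were lower under knockdown in 11 of 15 cases and higher in 0, with a median of -0.26, beside 31.3% lower among all tested genes. With median log ratio scaling 9 were lower and with quantile normalization 8, beside 21.5% and 21.4% of all tested genes. Elavl4 (HuD), which stabilizes Gap43 mRNA, stood at 17.6 and 18.7 FPKM under overexpression, 14.6 and 16.2 under knockdown, and 22.3 and 22.3 in control cells. It fell by 0.51 ± 0.06 under knockdown (limma, adjusted p = 4.41e-04), and its relative Elavl2 by 0.64 ± 0.06. Tardbp, singled out after its values were seen because loss of its product, TDP-43, lowers full-length STMN2 in human neurons, was not called, with a log2 fold change of -0.10 ± 0.05 (limma, adjusted p = 0.103). Under overexpression 1 member of the list was higher, Igf2bp3, by 0.60 ± 0.09 (limma, adjusted p = 0.0229).

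Stmn2 is a classical target of REST, the repressor that keeps neuronal genes silent in other cells. Of 14 genes of the REST complex 5 were lower under knockdown, with Hdac2, a histone deacetylase gene, at -0.58 ± 0.06, and 1 was higher (list median -0.13). The 35.7% lower stood near the 31.3% of all tested genes, and 4 were lower and 1 higher after either scaling. The higher one was Rest itself, named after its values were seen, at 3.32 and 2.76 FPKM under overexpression, 4.14 and 3.92 under knockdown, and 2.71 and 2.83 in control cells. Rest rose by 0.42 ± 0.09 (limma, adjusted p = 0.00478). Of 18 genes of activity and growth factor transcription 4 were lower and 1 higher (median -0.17), the higher being Atf3, a stress-induced transcription factor gene, by 0.75 ± 0.11. The 22.2% lower was under the 31.3% of all tested genes, and the counts were 3 lower and 2 higher after median log ratio scaling and 5 and 2 after quantile normalization. Klf7, a transcription factor gene of axon growth, fell by 0.51 ± 0.06.

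Of 26 tested genes of GPI anchor synthesis, the pathway that anchors neuritin, 7 were lower and 2 higher under knockdown (median 0.0091), and the 26.9% lower stood near the 31.3% of all tested genes. Pigu, a gene of the enzyme that joins the anchor to proteins, fell by 0.58 ± 0.10. The split was 2 lower and 5 higher after median log ratio scaling and 5 and 5 after quantile normalization. Among other regeneration-associated genes 8 of 13 tested were higher under knockdown and 1 lower, with a median of 0.43 and equal counts after both scalings. The 61.5% higher and 7.69% lower stood beside 14.8% and 31.3% of all tested genes. Il6, the interleukin 6 gene, stood at 8.57 and 7.68 FPKM under overexpression, 15.0 and 16.9 under knockdown, and 5.39 and 6.35 in control cells. Npy, the neuropeptide Y gene, rose by 0.88 ± 0.08 under overexpression (limma, adjusted p = 0.00366) and by 0.71 ± 0.08 under knockdown. Under overexpression Npy was the only called member of that list (2 were called after either scaling), and the 7 lists not yet named for overexpression had 0 called members (limma), with 2 to 5 of each at an unadjusted p under 0.05, as were 17.1% of all tested genes.

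**Figure D4:**
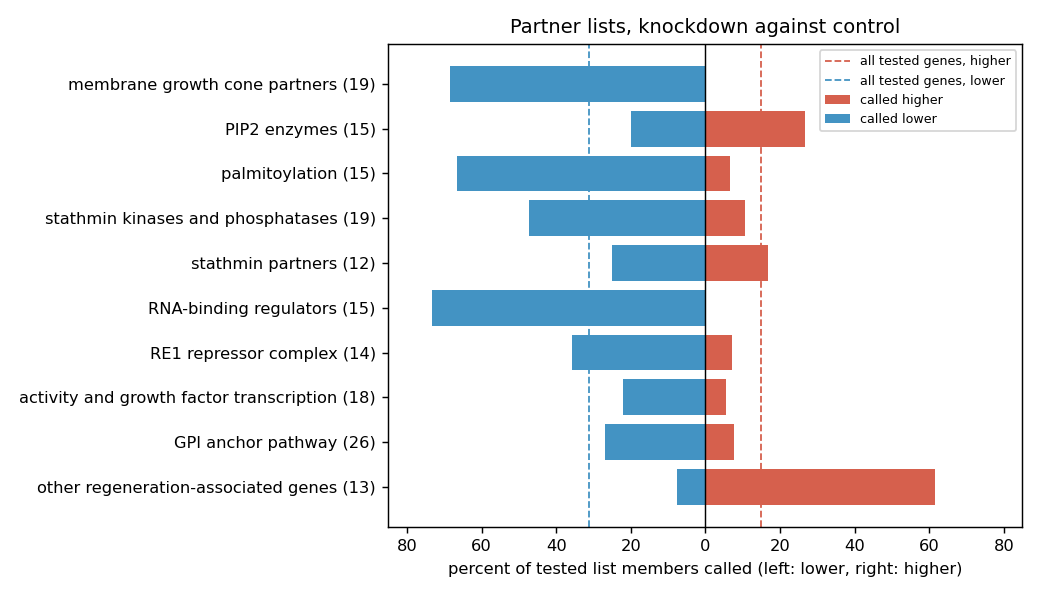
Share of the tested members of each partner list called lower (left) and higher (right) under knockdown, with the number tested in brackets; dashed lines give the share of all tested genes, 31.3% lower and 14.8% higher. The RNA-binding, membrane partner and palmitoylation lists reach furthest left, and the regeneration list furthest right. All lists were chosen with earlier results of these data known.

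Other values moved with the groups. The summed level of the 11 neuronal and sympathoadrenal markers was 937 and 1069 FPKM under overexpression, 868 and 841 under knockdown, and 1168 and 1109.5 in control cells. Tubb3, the neuronal tubulin gene, and Phox2a, a transcription factor gene, held much of that sum, with Tubb3 at 313 and 337 FPKM under overexpression, 246 and 253 under knockdown, and 397 and 388 in control cells. The markers did not all go that way: Th, the tyrosine hydroxylase gene, stood at 5.67 and 7.24 FPKM under overexpression, 11.9 and 9.32 under knockdown, and 4.99 and 4.67 in control cells. Chgb, a chromogranin gene, stood at 183 and 239.8 FPKM under overexpression, 259 and 218 under knockdown, and 244 and 228 in control cells, where knockdown and control overlapped. A list of 10 digestive tract transcripts, picked from these libraries, summed to 23.7 and 34.3 FPKM under overexpression, 0.623 and 0.547 under knockdown, and 29.998 and 22.8 in control cells, and 7 of them were listed at 0 in both knockdown libraries. Fibroblast markers summed to at most 1.495 FPKM and macrophage markers to at most 0.176 FPKM in any library, with C1qa at 0 in all. The part of these differences in the values of the 9 genes was not tested.

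**Figure D5:**
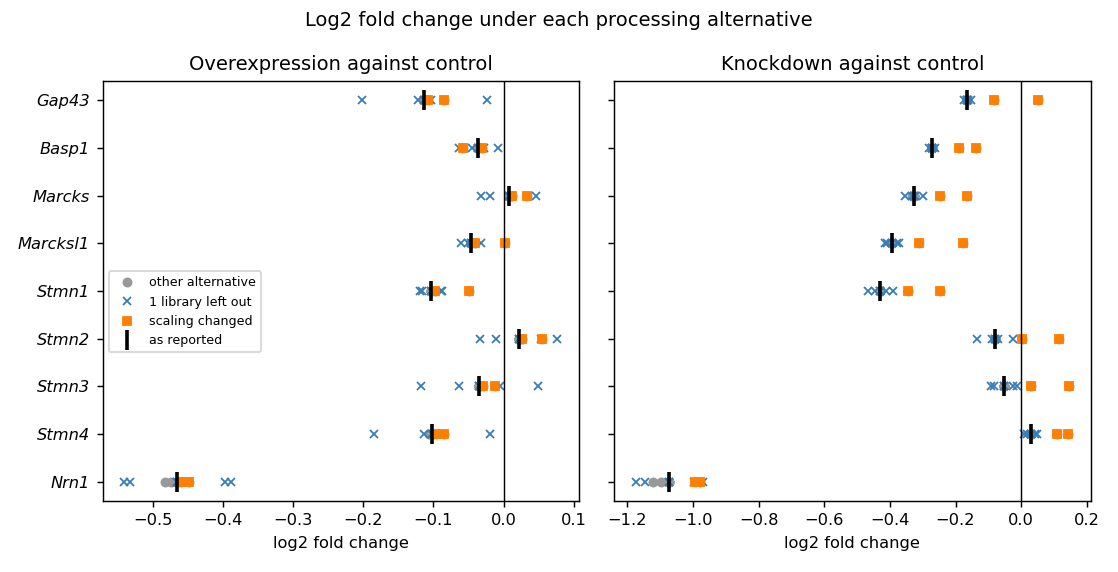
Log2 fold change of each gene under overexpression (left) and knockdown (right) as reported (black bar), with 1 library left out (crosses), with changed scaling (squares) and under the other alternatives (circles). For Basp1, Marcks, Marcksl1, Stmn1 and Nrn1 all knockdown values lie below 0, whereas those of Gap43, Stmn2 and Stmn3 cross it.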

How the data were processed

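RNA was extracted from Neuro-2a cells and sequenced from libraries made with a stranded mRNA kit, per the labels' protocols. The authors deposited FPKM values, 1 for each row in each library. The build mm10 and the tools HISAT2, Trimmomatic, HTSeq, Cufflinks and DESeq are named in the submitters' processing notes. The sources used here give no versions, annotation, filters or strand setting. FPKM depends on the library total, so abundant genes shift all others.

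The table had 21878 rows for 21876 symbols, 6 value columns and 0 columns left unmapped. Absolute depth is unknown. Low values stood in ratios of whole numbers up to 4 for 53.2% to 73.3% of low rows (within 0.03 on the log2 scale), giving depths of 0.886 to 1.08 relative to control 1.

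Genes whose mean reached 1 FPKM were fitted as log2(FPKM + 1) in limma 3.58.1 (R 4.3.3), with a mean for each group, all 6 libraries in 1 fit and empirical Bayes moderation along a trend, leaving 3 residual degrees of freedom. On that scale, changes of low genes are understated. Coding sequences were aligned with Biopython 1.88. Members, lists, tests and alternatives were chosen with earlier results of these data known. Named genes were all members, up to 4 called genes of each list by smallest p against control (the text gives a selection of these), and the 3 genes closest to each called member.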

Additional observations from a re-analysis of the deposited data

How the results depend on the processing

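Of the 405 log2 fold changes recomputed for the 9 genes (15 alternatives, 3 comparisons), 370 kept their direction and their side of the threshold, 9 lost a call, 7 gained one and 19 changed direction. None of the 19 came from a called difference, but 2 ended as calls, both Stmn3 after quantile normalization (under knockdown and between the treatments), so 9 values gained a call in all. Nrn1 was the only member called under overexpression. That call was lost without a filter (count 0), after quantile normalization (0), without the expression trend (0) and with the replicate block (0). With a library left out, the log2 fold change of Nrn1 there was -0.54 to -0.39. Why the call was lost was not tested. The fit without a filter covered 17311 genes in place of 10721. The members called numbered 5 to 6 under knockdown and between the treatments, but not always the same ones. Under knockdown quantile normalization gave 1 higher and 5 lower, against 0 and 5 as reported. Between the treatments it gave 4 higher and 2 lower, and median log ratio scaling 5 and 1, against 5 and 0. Directions that changed under overexpression were Marcksl1 after quantile normalization (0.0026) and, with a library left out, Marcks (-0.032 to 0.046), Stmn2 (-0.034 to 0.076) and Stmn3 (-0.12 to 0.050). Under knockdown these were Stmn2 and Stmn3 after median log ratio scaling (0.0022 and 0.029) and Gap43, Stmn2 and Stmn3 after quantile normalization (0.051, 0.12 and 0.15). Between overexpression and knockdown these were Gap43 and Stmn3 after median log ratio scaling (-0.025 and -0.058), Gap43, Stmn2 and Stmn3 after quantile normalization (-0.14, -0.061 and -0.16) and, with a library left out, Gap43 (-0.037 to 0.14) and Stmn3 (-0.065 to 0.10). Median log ratio scaling moved 15 of 27 group means by more than their SD.

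The labels give the libraries only a shared number: deviations of the libraries numbered 1 from their group means correlated at -0.12 (overexpression and control), 0.0069 (knockdown and control) and -0.21 (overexpression and knockdown) over 10721 genes. With the number as a replicate block the members called were 0, 5 and 5 in the 3 comparisons, and Nrn1 under overexpression was the only member whose call changed. The genes called over all tested were 66 with the block, against 165 without it, under overexpression. Without a filter 9 were higher and 0 lower there, against 74 and 91, without the expression trend 53 and 44, without control 1 these were 12 and 1. Leaving out control 2 gave 25 and 2, leaving out overexpression 1 gave 15 and 5, and leaving out overexpression 2 gave 24 and 22. Under knockdown the genes called higher were 942 with a filter at 5 FPKM, 979 without control 1, and 1590 in the fit reported. Between the treatments those called lower were 802 with that filter, 775 without knockdown 1, and 1332 in the fit reported. Depth limits low genes most; the 9 genes are all at or above 12.3 FPKM in every library.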
